A study of Mus musculus with 4 samples.

Results

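Gene-rich cells are here the bone marrow barcodes in which more than 4000 genes were detected and at most 15% of UMIs (unique molecular identifiers, each 1 captured mRNA molecule) were mitochondrial. The cell filter in the study's methods removes them, because it keeps 500 to 4000 genes. The rule found 1931 such barcodes among 36942, and the filter kept 31457. The cells were chosen by their number of detected genes and their mitochondrial share, so their high gene and UMI counts are a description and not a result. The 4 libraries, 1 per genotype, came from red cell-depleted marrow of the femur and tibia of 12 month old C57/B6 mice. DKO mice carried mDia1-/- and miR146a-/- with IL6+/+. TKO mice carried mDia1-/-, miR146a-/- and IL6-/-. IL-6 KO mice carried IL6-/- with mDia1+/+ and miR146a+/+, and TWT mice were +/+ at all 3 loci. About 10000 cells were loaded per library. The deletions are not limited to any cell type by the labels, and the sources used here give neither the sex nor the number of mice behind a library. With 1 library each, no comparison between genotypes has a replicate check, and animal, library and genotype cannot be told apart. Intervals are exact, at 95%, and cover counting error only.

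The number of genes detected in a droplet depends on how much mRNA the cell holds and on how many cells the droplet holds. In bone marrow, cycling progenitors are large and rich in mRNA, whereas mature neutrophils and resting lymphocytes hold little. Erythroid progenitors make ribosomes and divide before they turn most of their transcription over to hemoglobin. Granulocyte-monocyte progenitors (GMPs) make the proteases of primary granules and divide before their progeny become neutrophils or monocytes. A droplet that traps a pair of cells adds the genes of both. Mki67 and Top2a mark cycling cells: Ki-67 coats mitotic chromosomes, and topoisomerase 2A untangles DNA in late S phase and G2. In G2 and M phase many such genes are switched on together through a promoter element called the CHR, which is bound by the MuvB core of the DREAM and B-MYB complexes.

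The letters of the CHR (TTTGAA on the coding strand or TTCAAA on it, which is the same element on the other strand) were searched in RefSeq promoter windows of 300 bases, 250 before and 50 after the start of transcription (build GRCm38.p6, which has the sequence of mm10). Of the 52 genes in the G2/M list, 46 had a promoter in the table, and 32 of these (69.6%) held a match, against 4893 of the 27025 promoters read (18.1%). The promoters were read 1 per gene symbol, and a chromosome was left out, so genes on it count as without a promoter. A match describes the letters in this window and is no evidence of binding. The following 4 promoters belong to genes on which the cell cycle results turn, with the matches in capitals. Mki67 lies at chr7:135716330-135716629 (minus strand, 2 matches) and Top2a at chr11:99024140-99024439 (minus strand, 2 matches). Kif23, which encodes a motor protein of the cleavage furrow, lies at chr9:61946750-61947049 (minus strand, 1 match). Cenpf, which encodes a kinetochore protein, lies at chr1:189688037-189688336 (minus strand, 1 match).
Mki67: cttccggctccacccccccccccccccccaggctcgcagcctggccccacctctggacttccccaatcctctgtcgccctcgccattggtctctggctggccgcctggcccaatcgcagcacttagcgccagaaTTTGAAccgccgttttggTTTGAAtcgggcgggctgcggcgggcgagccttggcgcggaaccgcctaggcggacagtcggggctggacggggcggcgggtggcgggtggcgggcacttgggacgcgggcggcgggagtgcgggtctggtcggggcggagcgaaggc
Top2a: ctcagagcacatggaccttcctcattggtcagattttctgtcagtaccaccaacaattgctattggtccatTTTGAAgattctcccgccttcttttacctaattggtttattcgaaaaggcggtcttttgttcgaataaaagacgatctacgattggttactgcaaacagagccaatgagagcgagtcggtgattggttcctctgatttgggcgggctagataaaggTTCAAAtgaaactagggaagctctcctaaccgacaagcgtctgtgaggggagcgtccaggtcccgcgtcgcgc
Kif23: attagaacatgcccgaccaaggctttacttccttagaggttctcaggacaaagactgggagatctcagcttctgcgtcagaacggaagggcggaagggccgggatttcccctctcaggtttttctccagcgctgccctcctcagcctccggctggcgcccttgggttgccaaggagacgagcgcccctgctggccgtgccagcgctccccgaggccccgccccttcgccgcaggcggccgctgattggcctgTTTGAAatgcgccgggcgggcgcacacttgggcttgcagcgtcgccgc
Cenpf: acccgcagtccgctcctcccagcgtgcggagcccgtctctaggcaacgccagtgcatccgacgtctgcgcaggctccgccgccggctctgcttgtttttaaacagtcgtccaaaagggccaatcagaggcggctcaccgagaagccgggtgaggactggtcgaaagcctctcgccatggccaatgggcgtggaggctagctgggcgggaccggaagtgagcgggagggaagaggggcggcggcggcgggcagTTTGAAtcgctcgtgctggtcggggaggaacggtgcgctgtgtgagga

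The libraries held between 61292684 and 85145074 UMIs. Median UMIs per barcode were 6596 in DKO, 4591 in TKO, 4572 in IL-6 KO and 4363 in TWT, whereas the mean was closer between them (7836, 7571, 7094 and 7651 in the same order). In gene-rich cells the median was 26137 UMIs in DKO, 27418 in TKO, 26922 in IL-6 KO and 26389 in TWT, so depth was alike in the cells compared. Diaph1, which encodes mDia1, stood at 10.2 CPM (counts of a gene per 1000000 UMIs, here summed over gene-rich cells) in DKO and 11.9 in TKO, against 100 in IL-6 KO and 110 in TWT, as the labels say. Il6 went against the labels in direction: it was at 0 CPM in DKO, 1.81 in TKO, 2.78 in IL-6 KO and 0.0516 in TWT in gene-rich cells, and at 0.235, 8.60, 9.89 and 0.807 CPM over all barcodes in the same order. The sources used here do not state which part of the gene was deleted, and 3′ tags from outside that part check nothing, so the libraries are named here as labelled and the IL6 genotype is not checked by these data. Xist, which is expressed from the inactive X of female cells, was at 1185 CPM in IL-6 KO and at or below 0.206 CPM in the other libraries. Sex and genotype cannot be told apart in any contrast with IL-6 KO. Pairs of libraries shared between 19 and 36 barcodes, and 23 gene-rich cells carried a barcode found in another library. A single further barcode, in IL-6 KO, had more than 4000 genes but over 15% mitochondrial UMIs.

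Gene-rich cells were scarcest in DKO. They numbered 275 of 10866 barcodes in DKO (2.53%, interval 2.24 to 2.84), 588 of 9013 in TKO (6.52%, 6.02 to 7.05), 422 of 8640 in IL-6 KO (4.88%, 4.44 to 5.36) and 646 of 8423 in TWT (7.67%, 7.11 to 8.26). None of these intervals overlapped another. The share in DKO was 0.330 of that in TWT (0.286 to 0.381) and 0.388 of that in TKO (0.335 to 0.448). The share in TKO was 0.851 of that in TWT (0.759 to 0.953), and that in IL-6 KO was 0.637 of it (0.562 to 0.721). These ratios share the DKO or TWT library and are not independent of each other.

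The gap widened with the limit. Over 3500 genes, DKO held 604 barcodes (5.56%), TKO 919 (10.2%), IL-6 KO 676 (7.82%) and TWT 938 (11.1%). Over 5000 genes the numbers were 41 in DKO (0.377%), 191 in TKO (2.12%), 159 in IL-6 KO (1.84%) and 235 in TWT (2.79%), so DKO stood at 0.135 of TWT (0.0946 to 0.189). Over 6000 genes DKO had a single barcode, against 45 in TKO, 33 in IL-6 KO and 63 in TWT. Barcodes just outside the limit (3901 to 4000 genes) numbered 47 in DKO, 63 in TKO, 47 in IL-6 KO and 59 in TWT, and just inside it (4001 to 4100 genes) 37, 54, 37 and 60 in the same order. Gene-rich cells carried 8.90% of all UMIs of the DKO library, 25.9% in TKO, 20.6% in IL-6 KO and 30.1% in TWT. The filter thus removes unequal parts of the RNA of the 4 libraries.

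**Figure D1:**
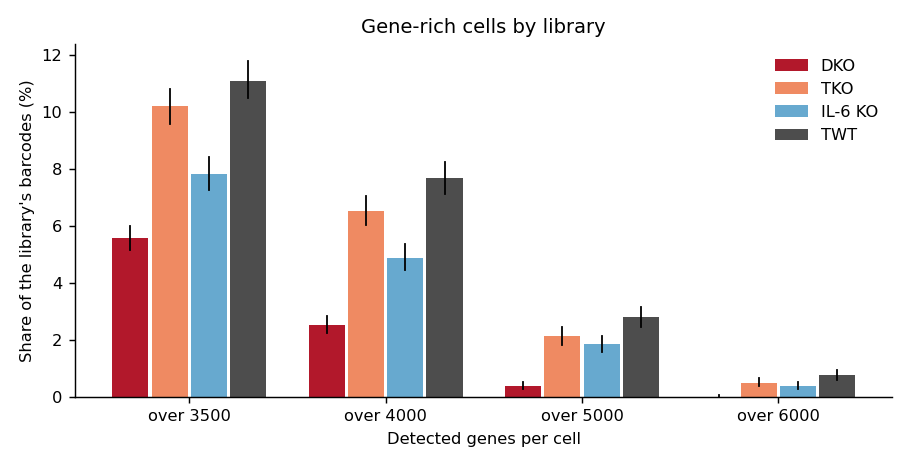
Gene-rich barcodes as a percentage of each library's barcodes, at limits of 3500, 4000, 5000 and 6000 detected genes (x axis), with bars for DKO, TKO, IL-6 KO and TWT from left to right and exact 95% intervals that cover counting error only. DKO is lowest at each limit, with 2.53% over 4000 genes against 7.67% in TWT.

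Clustering of the 1931 cells gave 11 clusters, which were named from marker lists. Erythroid-like cells (clusters 2 and 5, 299 and 171 cells) were led by Car1, Slc4a1, Hbb-bt and Alas2. GMP-like cells (cluster 1, 312 cells) were led by Prss57, Nkg7, Ms4a3 and Elane. Monocyte-like cells were clusters 4, 7 and 8 (179, 114 and 111 cells). Cluster 4 was led by Fn1 and Vcan, cluster 7 by Saa3 and Fn1, and cluster 8 by Trem2 and Lpl, with no monocyte marker among the 10 leading genes of cluster 8. Saa3 leads cluster 7 through its DKO cells. Monocyte-like cells held 4774 Saa3 UMIs in DKO, 4 in TKO, 0 in IL-6 KO and 1 in TWT. From their own UMIs 63 of the 111 cells of cluster 8 scored as GMP and 30 as monocyte (17 and 17 of 38 in DKO, 25 and 3 of 35 in TKO, 9 and 2 of 13 in IL-6 KO, 12 and 8 of 25 in TWT), and at a resolution of 1 the Trem2-led cluster took the name macrophage, so its place among monocyte-like cells is loose and values without it are given where they bear. Smaller classes were megakaryocyte-like (cluster 6, 117 cells, Pf4 and Ppbp), pro/pre-B cell-like (cluster 9, 88 cells, Igll1 and Vpreb1) and T cell-like (cluster 10, 25 cells, Gzma, Ccl5 and Trbc2). Cluster 0 (335 cells), led by Cd34, Bcl2 and Irf8, met no list and stays unnamed. Cluster 3 (180 cells) was led by immunoglobulin genes and the neutrophil granule gene Ltf, and is called the mixed cluster. Clusters were set with the same genes that are described in them, so their markers are not results.

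Erythroid-like cells were nearly missing among the gene-rich cells of DKO. They made up 11 of 275 cells in DKO (4.0%, interval 2.01 to 7.04), 151 in TKO (25.7%, 22.2 to 29.4), 120 in IL-6 KO (28.4%, 24.2 to 33.0) and 188 in TWT (29.1%, 25.6 to 32.8). As a share of all barcodes of a library, DKO stood at 0.0454 of TWT (0.0223 to 0.0830), TKO at 0.751 and IL-6 KO at 0.622. The 3 other genotypes gave erythroid shares whose intervals overlapped. The few DKO cells carried the same markers: Car1, carbonic anhydrase 1 of early red cells, was at 2085 CPM in DKO, 3238 in TKO, 1963 in IL-6 KO and 2206 in TWT. Klf1, the master transcription factor of the lineage, was at 289 CPM in DKO, 292 in TKO, 320 in IL-6 KO and 261 in TWT. Slc4a1, the band 3 anion exchanger of later stages, was at 65.3 CPM in DKO, 119 in TKO, 166 in IL-6 KO and 162 in TWT. Epor, the erythropoietin receptor, ranged between 95.8 and 114 CPM and Tfrc, the transferrin receptor, between 287 and 367 CPM over the 4 libraries.

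GMP-like cells were also fewer in DKO. They were 27 cells in DKO (9.82% of gene-rich cells, 6.57 to 14.0), 107 in TKO (18.2%), 57 in IL-6 KO (13.5%) and 121 in TWT (18.7%, 15.8 to 22.0). Per barcode, DKO stood at 0.173 of TWT (0.110 to 0.264). From their own UMIs 17 of the 27 GMP-like cells in DKO scored as GMP, against 106 of 107 in TKO, 53 of 57 in IL-6 KO and 119 of 121 in TWT, so the class held other cells in DKO. Over all clusters 80 of the 275 gene-rich cells in DKO scored as GMP, against 216 of 646 in TWT. These shares differ less than those of the GMP-like cluster. Of the 80 cells in DKO, 38 lay in the Cd34-led cluster and 17 in cluster 8. Elane, neutrophil elastase, was at 7201 CPM in DKO, 15997 in TKO, 14168 in IL-6 KO and 16876 in TWT. Mpo, myeloperoxidase, was at 1953 CPM in DKO, 5247 in TKO, 6879 in IL-6 KO and 6820 in TWT. Prtn3, proteinase 3, was at 6567 CPM in DKO, 18636 in TKO, 13194 in IL-6 KO and 14314 in TWT. Ms4a3, a marker of GMPs, was at 1341 CPM in DKO, 2205 in TKO, 1801 in IL-6 KO and 2109 in TWT. With 27 cells in DKO this class was under the 30 cells set for a comparison across genes, and these are levels only.

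Monocyte-like cells were the largest class in DKO in the joined clustering. They were 107 cells in DKO (38.9%, 33.1 to 44.9), 121 in TKO (20.6%), 65 in IL-6 KO (15.4%) and 111 in TWT (17.2%, 14.4 to 20.3). The share of gene-rich cells in DKO was 2.26 times that in TWT (1.72 to 2.98), yet per barcode DKO stood at 0.747 of TWT (0.568 to 0.983). The larger share thus went with fewer other gene-rich cells and not with more monocyte-like ones per barcode. Without integration of the libraries the direction turned, since no DKO cell fell in the monocyte cluster, which held 100 cells in TWT. Without cluster 8 the ratio of shares was 1.88. Cluster 8 held 38 cells in DKO, 35 in TKO, 13 in IL-6 KO and 25 in TWT, and cluster 4 held 37, 56, 35 and 51 in the same order. Ly6c2, which marks classical monocytes, was at 1675 CPM in DKO, 2287 in TKO, 2471 in IL-6 KO and 2063 in TWT. Ccr2, the chemokine receptor by which monocytes leave the marrow, was at 582 CPM in DKO, 581 in TKO, 517 in IL-6 KO and 703 in TWT.

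The Cd34-led cluster held a like share in all libraries: 47 cells in DKO (17.1%), 109 in TKO (18.5%), 73 in IL-6 KO (17.3%) and 106 in TWT (16.4%). Per barcode DKO stood at 0.344 of TWT (0.238 to 0.489). From their own UMIs, without clustering, 210 of its 335 cells scored as GMP and 68 as stem and progenitor cells. Megakaryocyte-like cells were 7 in DKO (2.55%), 37 in TKO (6.29%), 29 in IL-6 KO (6.87%) and 44 in TWT (6.81%). This cluster held several lineages, since 63 of its 117 cells scored as stem and progenitor, 28 as megakaryocyte and 19 as basophil or mast cells from their own UMIs. Pf4, platelet factor 4, was at 46.0 CPM in DKO, 839 in TKO, 9724 in IL-6 KO and 10724 in TWT, and Mcpt8, a basophil protease, was at 17.2 CPM in DKO, 1858 in TKO, 2194 in IL-6 KO and 693 in TWT. Ppbp, another platelet chemokine, was at 0 CPM in DKO, 3.83 in TKO, 5758 in IL-6 KO and 540 in TWT. Both platelet genes were thus lower in DKO and TKO than in IL-6 KO and TWT, but the content of the cluster differed too. Cells that scored as megakaryocyte were 4 of 37 in TKO, 9 of 29 in IL-6 KO and 15 of 44 in TWT. The 7 DKO cells scored as plasma cell (3), stem and progenitor (3) and macrophage (1). These levels are therefore not read as a difference between genotypes.

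Pro/pre-B cell-like cells were most frequent in IL-6 KO, with 43 cells (10.2%, 7.47 to 13.5), against 2 in DKO (0.727%), 25 in TKO (4.25%) and 18 in TWT (2.79%). Per barcode IL-6 KO stood at 2.33 of TWT (1.32 to 4.29) and TKO at 0.557 of IL-6 KO (0.326 to 0.933). Vpreb1 and Igll1 encode the surrogate light chain of the pre-B cell receptor. Vpreb1 was at 1175 CPM in DKO, 987 in TKO, 745 in IL-6 KO and 701 in TWT, and Igll1 at 627, 580, 407 and 418 CPM in the same order. The DKO levels rest on 2 cells, of which 1 scored as pro/pre-B cell and 1 as plasma cell from their own UMIs. T cell-like cells were 14 in DKO (5.09%, 2.81 to 8.39), 5 in TKO, 2 in IL-6 KO and 4 in TWT. In DKO these cells also held Ly6c2 at 1354 CPM beside Cd3d, a chain of the T cell receptor complex, at 211 CPM. Of the 25 cells of this cluster, 6 scored as monocyte, 4 as GMP, 6 as NK cell and 4 as T cell from their own UMIs.

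The mixed cluster differed in content between libraries. It held 60 cells in DKO (21.8%, 17.1 to 27.2), 33 in TKO (5.61%), 33 in IL-6 KO (7.82%) and 54 in TWT (8.36%), and per barcode DKO stood at 0.861 of TWT (0.586 to 1.27). In DKO, 23 of its cells scored as non-classical monocyte, 13 as immature neutrophil, 11 as monocyte and 5 as macrophage. In TWT 20 scored as GMP, 8 as monocyte, 7 as plasma cell and 6 as immature neutrophil. C1qb, the complement gene of macrophages, was at 139 CPM in the cluster in DKO, 0 in TKO, 1.01 in IL-6 KO and 0.64 in TWT. Jchain, which joins secreted antibodies in plasma cells, was at 0 CPM in DKO, 4.45 in TKO, 254 in IL-6 KO and 515 in TWT. Camp, an antimicrobial peptide of secondary granules, was high in all, at 30086 CPM in DKO, 45979 in TKO, 31789 in IL-6 KO and 27481 in TWT. Since different cells filled it, no comparison of levels within it is read as a difference between genotypes.

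**Figure D2:**
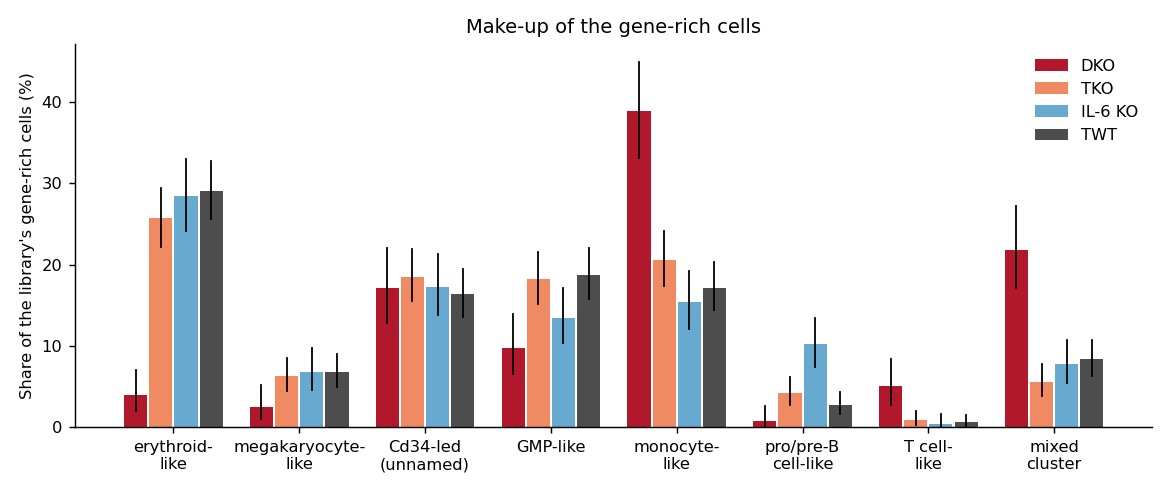
Make-up of the gene-rich cells, as the percentage of each library's gene-rich cells in each of 8 classes (x axis), with bars for DKO, TKO, IL-6 KO and TWT from left to right and exact 95% intervals. Erythroid-like cells are 4.0% in DKO against 29.1% in TWT, and monocyte-like cells 38.9% against 17.2%.

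A smaller number of gene-rich cells of a lineage can come with fewer cells of the lineage or with fewer of its cells passing 4000 genes. To set these side by side, every barcode was given the class of its highest marker score (the mean of its scaled marker levels, relative to the spread over all barcodes), whether or not it was gene-rich. Erythroid barcodes were 64 in DKO, 851 in TKO, 691 in IL-6 KO and 944 in TWT, so that DKO stood at 0.0526 of TWT per barcode (0.0401 to 0.0677). Of them 8 were gene-rich in DKO (12.5%, 5.55 to 23.2), 143 in TKO (16.8%), 120 in IL-6 KO (17.4%) and 186 in TWT (19.7%, 17.2 to 22.4). The share of erythroid barcodes that passed the limit in DKO was 0.634 of that in TWT, with an interval that holds 1 (0.270 to 1.28). DKO and TWT thus differed more in the number of erythroid barcodes than in the share of them that was gene-rich.

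GMP and monocyte barcodes showed the other pattern. GMP barcodes were 402 in DKO, 504 in TKO, 362 in IL-6 KO and 407 in TWT, so DKO stood at 0.766 of TWT per barcode (0.665 to 0.881). Of these, 80 were gene-rich in DKO (19.9%, 16.1 to 24.1), 231 in TKO (45.8%, 41.4 to 50.3), 129 in IL-6 KO (35.6%, 30.7 to 40.8) and 216 in TWT (53.1%, 48.1 to 58.0). The share that passed the limit in DKO was 0.375 of that in TWT (0.286 to 0.487), and 0.671 in IL-6 KO (0.536 to 0.839), whereas the ratio of TKO to TWT was 0.864 with an interval that holds 1 (0.714 to 1.04). Monocyte barcodes were more numerous in DKO, at 1832, against 598 in TKO, 518 in IL-6 KO and 575 in TWT, which put DKO at 2.47 times TWT per barcode (2.25 to 2.72). Only 81 of them were gene-rich in DKO (4.42%, 3.53 to 5.47), against 76 in TKO (12.7%, 10.1 to 15.6), 36 in IL-6 KO (6.95%, 4.91 to 9.49) and 93 in TWT (16.2%, 13.3 to 19.4). The share in DKO was 0.273 of that in TWT (0.20 to 0.372). DKO thus had more monocyte barcodes, of which a smaller part was gene-rich.

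Mature neutrophil and B cell barcodes did not pass the limit. None of 6083 mature neutrophil barcodes was gene-rich, which allows a share of up to 0.0493%, and none of 2639 B cell barcodes, which allows up to 0.114%. Immature neutrophils passed it in 16 of 2235 barcodes in DKO (0.716%), 5 of 1810 in TKO (0.276%), 5 of 1613 in IL-6 KO (0.310%) and 6 of 1370 in TWT (0.438%). Non-classical monocytes, the patrolling Treml4-positive form, passed it in 39 of 1649 barcodes in DKO (2.37%, 1.69 to 3.22), 1 of 98 in TKO (1.02%, 0.0258 to 5.55), 0 of 44 in IL-6 KO and 0 of 33 in TWT, intervals that overlap. Macrophage barcodes passed it in 14 of 564 in DKO (2.48%), 0 of 81 in TKO, 1 of 66 in IL-6 KO and 0 of 96 in TWT, also with overlapping intervals. Over all libraries the limit was passed by 86 of 1384 pro/pre-B barcodes (6.21%), 36 of 423 conventional dendritic cell barcodes (8.51%), 28 of 171 megakaryocyte barcodes (16.4%) and 27 of 150 barcodes with endothelial markers. Stem and progenitor barcodes passed it often in every library: 8 of 27 in DKO (29.6%), 45 of 91 in TKO (49.5%), 40 of 117 in IL-6 KO (34.2%) and 57 of 124 in TWT (46.0%).

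When the cell numbers per class of DKO were combined with the gene-rich share of each class in TWT, 5.52% of barcodes would be gene-rich, between the 2.53% found in DKO and the 7.67% found in TWT. With the cell numbers of TWT and the class shares of DKO the value was 3.84%. Both the mix of classes and the share within classes thus entered the DKO value. In TKO the same sums gave 7.45% and 6.74%, against 6.52% found, and in IL-6 KO 6.51% and 5.58%, against 4.88% found. Of all gene-rich cells 157 (8.13%) scored within 0.25 SD of a further class, and this share was 17.5% in DKO, 6.63% in TKO, 8.06% in IL-6 KO and 5.57% in TWT.

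**Figure D3:**
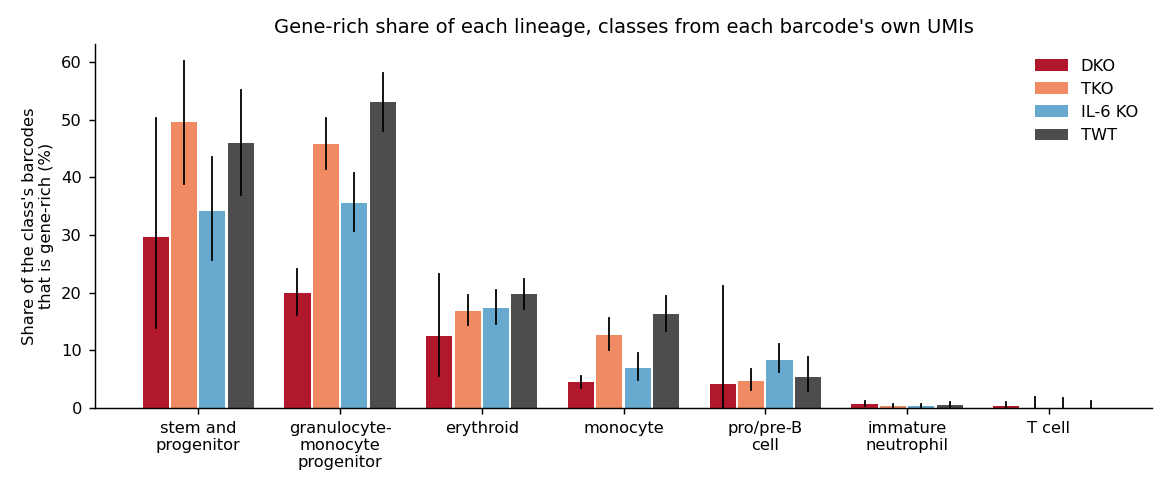
Percentage of the barcodes of each lineage that are gene-rich, with the lineage taken from each barcode's own marker UMIs (x axis, 7 classes), bars for DKO, TKO, IL-6 KO and TWT from left to right and exact 95% intervals. For GMP barcodes the share is 19.9% in DKO against 53.1% in TWT, and for monocyte barcodes 4.42% against 16.2%.

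Most gene-rich cells held transcripts of cycling cells in each library, and the share was lowest in DKO. To compare cells at equal depth, each was thinned to 10000 UMIs, which left out no gene-rich cell. A Mki67 UMI was then found in 62.5% of gene-rich cells in DKO (56.5 to 68.3), 85.7% in TKO (82.6 to 88.4), 90.5% in IL-6 KO (87.3 to 93.1) and 89.2% in TWT (86.5 to 91.5). Top2a was found in 57.5% in DKO, 89.1% in TKO, 90.3% in IL-6 KO and 86.7% in TWT. Neither gene was found in 29.1% of cells in DKO, 3.74% in TKO, 4.50% in IL-6 KO and 4.80% in TWT. The summed UMIs of the 42 S phase genes had a median of 25.0 per cell in DKO, 44.0 in TKO, 44.5 in IL-6 KO and 43.0 in TWT, and those of the 52 G2/M genes 68.0, 103, 114 and 110 in the same order. Without thinning, Mki67 was found in 76.7% of cells in DKO, 94.7% in TKO, 96.0% in IL-6 KO and 95.2% in TWT, which is the same order of DKO against the rest.

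A Mki67 UMI can also come from free RNA, so mature neutrophils, which do not divide, were read as a background at 2000 UMIs per cell. There Mki67 was found in 0.143% of 701 kept mature neutrophils in DKO, 1.27% of 1336 in TKO, 1.27% of 1498 in IL-6 KO and 1.38% of 1162 in TWT, whose median depth before thinning was between 2716 and 4986 UMIs. At that same depth the share in gene-rich cells was 33.5% in DKO, 58.3% in TKO, 61.8% in IL-6 KO and 58.8% in TWT, well over this background in each library.

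Among the classes with 30 or more DKO cells, the intervals of DKO and TWT were apart in monocyte-like cells and the mixed cluster. In monocyte-like cells Mki67 was found in 68.2% in DKO (58.5 to 76.9), 95% in TKO, 95.4% in IL-6 KO and 96.4% in TWT. Within them it was cluster 7 that differed: Mki67 was found in 8 of 32 cells in DKO (25.0%, 11.5 to 43.4) and in all 30 cells in TKO, 17 in IL-6 KO and 35 in TWT. From their own UMIs 17 of the 32 DKO cells scored as monocyte and 12 as non-classical monocyte. Those that scored as monocyte were 26 of 30 in TKO, 14 of 17 in IL-6 KO and 33 of 35 in TWT. The median G2/M sum in cluster 7 was 13 UMIs in DKO, against 226 in TKO, 231 in IL-6 KO and 245 in TWT, so the cells placed there differed in kind between DKO and the rest. In cluster 4 Mki67 was found in 91.9% in DKO, 100% in TKO, 100% in IL-6 KO and 98.0% in TWT, and in cluster 8 in 81.6%, 82.9%, 76.9% and 88.0% in the same order. In the mixed cluster it was found in 40.0% in DKO (27.6 to 53.5), 90.9% in TKO, 87.9% in IL-6 KO and 85.2% in TWT. GMP-like cells gave 66.7% in DKO, 67.3% in TKO, 87.7% in IL-6 KO and 79.3% in TWT, and the Cd34-led cluster 78.7%, 77.1%, 79.5% and 84.0%, so that DKO did not stand apart from TKO in either. Without cluster 8 the monocyte-like share lay 38.0 points lower in DKO than in TWT, in place of 28.2. Of the 11 erythroid-like cells in DKO 7 held Mki67 (63.6%), against 98.7% in TKO, 95.8% in IL-6 KO and 98.4% in TWT, and megakaryocyte-like cells gave 42.9% of 7 cells in DKO, 70.3% in TKO, 86.2% in IL-6 KO and 72.7% in TWT. The small number of erythroid-like cells, nearly all with Mki67 in the other libraries, also enters the DKO total.

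Kept monocytes, classed by own UMIs, could be read in this way only where they held 10000 UMIs. Such cells were 784 of 1631 in DKO, 152 of 514 in TKO, 126 of 467 in IL-6 KO and 113 of 472 in TWT. The part left out thus differed between libraries. Mki67 was found in 132 of the 784 in DKO (16.8%), and in 76.3% in TKO, 84.1% in IL-6 KO and 69.9% in TWT. Gene-rich barcodes of the same own-UMI class held it in 74.1%, 98.7%, 97.2% and 96.8% in the same order. They were thus above these deeper kept monocytes in all libraries, and DKO was lowest in both. In kept GMPs the shares were 60.1% in DKO, 82.5% in TKO, 82.4% in IL-6 KO and 81.5% in TWT.

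**Figure D4:**
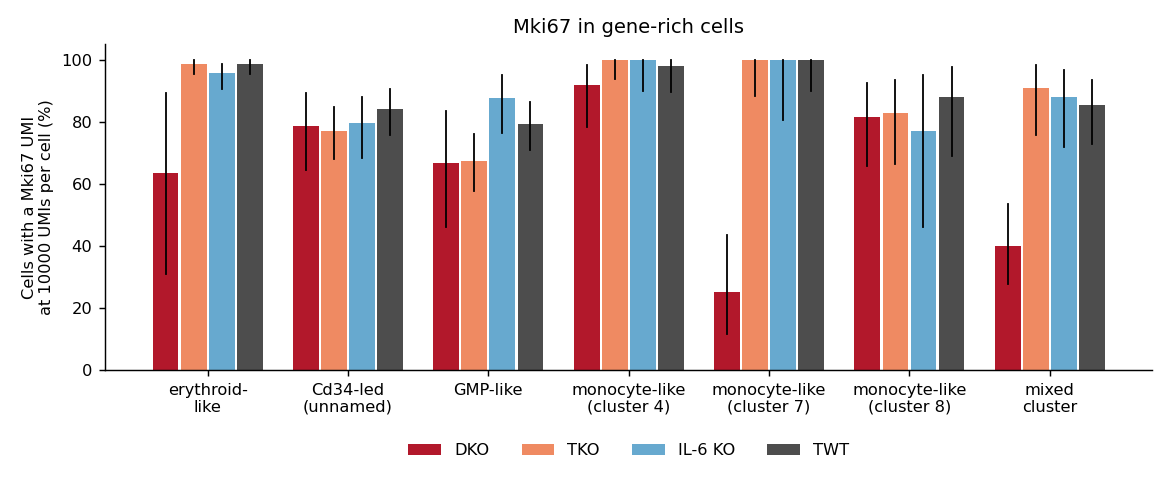
Percentage of gene-rich cells with a Mki67 UMI after thinning to 10000 UMIs per cell (y axis), by class and by monocyte-like cluster (x axis), with bars for DKO, TKO, IL-6 KO and TWT from left to right and exact 95% intervals. In cluster 7 the share is 25.0% in DKO and 100% in the other libraries, whereas in cluster 4 it is 91.9% or more in each.

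Between DKO and TWT, genes were compared within the 2 classes, other than the mixed cluster, that had at least 30 cells in both libraries: the monocyte-like cells and the Cd34-led cluster. UMIs were summed over a class, and a gene was called at a difference of 2-fold or more (log2 of CPM with a pseudocount of 1 CPM), with 50 CPM or more in either library. In monocyte-like cells 181 of 3213 measured genes were higher in DKO (5.63%) and 208 were lower (6.47%), 389 in all (12.1%). Against TKO, 318 of 3122 genes were called (10.2%), while 24 of 3114 were called between TKO and TWT (0.771%) and 24 of 3164 between IL-6 KO and TWT (0.759%). These comparisons share the DKO or the TWT library. The 263 genes called against TWT that moved the same way by 2-fold or more against TKO were 8.19% of those measured, and the named genes come from these and from the lists.

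Acute phase and complement genes stood highest in the monocyte-like cells of DKO. Saa3, an acute phase protein, was at 1803 CPM in DKO, 1.55 in TKO, 0 in IL-6 KO and 0.417 in TWT, and its single UMI in TWT gives a ratio of 4327 with a counting interval of 776 to 170936. C1qb, C1qa and C1qc encode the C1q complement protein of macrophages. C1qb was at 110 CPM in DKO, 0 in TKO, 5.94 in IL-6 KO and 0 in TWT, at least 87.9-fold higher with the 0 in TWT set to a floor of 3 UMIs over the class. C1qa was at 65.7 CPM in DKO, 0 in TKO, 0.743 in IL-6 KO and 0 in TWT, at least 52.6-fold higher with the same floor. Apoe, a lipid carrier of macrophages, was at 1241 CPM in DKO, 38.7 in TKO, 25.3 in IL-6 KO and 36.3 in TWT (log2 difference 5.06). Treml4, of non-classical monocytes, was at 53.2 CPM in DKO, 3.09 in TKO, 0 in IL-6 KO and 0.417 in TWT. Gngt2, a G protein subunit of the same cells, was at 477 CPM in DKO, 30.9 in TKO, 7.43 in IL-6 KO and 26.3 in TWT (4.13). F11r, a junctional adhesion molecule, was at 67.6 CPM in DKO, 0 in TKO, 0 in IL-6 KO and 0.417 in TWT. All 4 measured macrophage genes and 2 of 3 of the non-classical monocyte list were called higher. From their own UMIs 12 of the 107 monocyte-like cells in DKO scored as non-classical monocyte and 5 as macrophage. These were all such cells among the 404 of the class over the 4 libraries. The content of the class thus differed, and these levels are not read as a change within a single cell type. The median log2 difference of the 4 macrophage genes was 5.49 with the genes at 0 set to their bound, against a median of -0.10 over all measured genes.

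Kept B cells of the same libraries, which do not make Saa3 or C1q, give a level for free RNA in barcodes of lower depth. Saa3 was at 59.2 CPM there in DKO and at most 0.605 elsewhere, C1qb at 14.0 CPM in DKO and at most 2.42 elsewhere, and Gngt2 at 141 in DKO, 108 in TKO, 79.2 in IL-6 KO and 94.8 in TWT. Apoe was at 1907 CPM in kept B cells of DKO, which is above its level in the monocyte-like cells, and at 88.8 in TKO, 364 in IL-6 KO and 314 in TWT. Kept T cells gave another level: in DKO Saa3 was at 217 CPM there, C1qb at 14.1, Gngt2 at 80.7 and Apoe at 455. In monocyte-like cells of DKO, Saa3, C1qb and Gngt2 were thus above both levels, while Apoe was above the level in T cells and below that in B cells. These CPM come from unlike depths. In DKO the median was 2528 UMIs in B cell barcodes and 3485 in T cell barcodes, against 23558 in monocyte-like cells. The same number of free UMIs gives a higher CPM in a shallower barcode. A level near or below that of lymphocytes, here or for the genes below, thus does not show how much is free RNA. The part of free RNA and of doublets in these differences was not tested. Limited to cells that were monocyte or progenitor by their own UMIs, C1qa (log2 1.52), C1qb (3.56), C1qc (1.74) and Treml4 (3.86) lost the call. These genes are themselves in the lists that set the own-UMI classes, so this loss was in part fixed by the choice of cells.

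Neutrophil genes were also higher in the monocyte-like cells of DKO. Of the immature neutrophil list, 6 of 8 measured genes were higher and 0 lower (median log2 2.12), and all 4 measured genes of the mature neutrophil list were higher (2.66). Chil3, a chitinase-like protein of maturing granulocytes and monocytes, was at 6730 CPM in DKO, 1186 in TKO, 942 in IL-6 KO and 489 in TWT (3.78). Lcn2, the iron-binding protein of secondary granules, was at 2196 CPM in DKO, 150 in TKO, 264 in IL-6 KO and 176 in TWT (3.64). Retnlg, of mature neutrophils, was at 466 CPM in DKO, 33.3 in TKO, 95.8 in IL-6 KO and 42.1 in TWT (3.44), and Il1b, the inflammatory cytokine, at 51.0, 1.93, 2.97 and 1.67 CPM in the same order (4.28). In kept B cells Lcn2 was at 764 CPM in DKO, 709 in TKO, 778 in IL-6 KO and 1110 in TWT, and Retnlg at 1333, 852, 1868 and 1831, so that Retnlg lay below its level in B cells in all libraries. In kept T cells Lcn2 was at 1234 CPM in DKO, 2097 in TKO, 566 in IL-6 KO and 712 in TWT, also above the monocyte-like level outside DKO. Immediate early genes, which rise within minutes of cell handling, moved with these: 4 of 5 measured genes of the dissociation stress list were higher in DKO (median 2.07), among them Jun at 199 CPM in DKO, 75.4 in TKO, 38.6 in IL-6 KO and 27.9 in TWT. Their part in the differences was not tested.

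G2/M genes were lower in the monocyte-like cells of DKO: 23 of 47 measured genes were lower and 0 higher (median log2 -0.99). Kif23 was at 66.1 CPM in DKO, 150 in TKO, 217 in IL-6 KO and 215 in TWT (-1.69). Ckap2, a spindle protein, was at 29.5 CPM in DKO, 69.2 in TKO, 59.4 in IL-6 KO and 96.7 in TWT (-1.68). Of the S phase list 2 of 28 measured genes were lower and 0 higher (-0.43), and no gene of the ribosome biogenesis list (0 of 8) or the nucleotide synthesis list (0 of 8) was called. Of the GMP list 2 of 7 measured genes were lower and 0 higher (-0.43), and of the monocyte list 1 of 8 was lower and 1 higher (-0.20). Those lower in the GMP list were Mpo and Ctsg, and in the monocyte list F13a1. Mpo was at 88.7 CPM in DKO, 725 in TKO, 744 in IL-6 KO and 430 in TWT (-2.26), Ctsg, cathepsin G, at 219, 943, 1164 and 610 CPM in the same order (-1.48), and F13a1, coagulation factor XIII of monocytes, at 530, 970, 1028 and 1092 CPM (-1.04). The lowest genes were globins: Hbb-bs, adult beta-globin, was at 12.1 CPM in DKO, 53.8 in TKO, 43.8 in IL-6 KO and 1489 in TWT (-6.83). In kept B cells Hbb-bs was at 63.1 CPM in DKO, 1565 in TKO, 130 in IL-6 KO and 1546 in TWT and in kept T cells at 49.7, 74.0, 2214 and 175 CPM in the same order. These levels are not stable between cell types, since TKO was high in B cells only and IL-6 KO in T cells only. DKO was lower than TWT in both, in cells that make no globin. The part of free RNA in the globin difference was not tested.

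Without cluster 7, which held most of the monocyte-like DKO cells with no Mki67 UMI, 300 genes were called in place of 389, and 241 of the 389 were called again. Without cluster 8, 483 genes were called and 349 of the 389 were called again. In cells that were monocyte or progenitor by their own UMIs, 33.2% of calls were higher in DKO, against 46.5% in the main comparison.

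In the Cd34-led cluster 125 of 3082 measured genes were higher in DKO (4.06%) and 192 were lower (6.23%), 317 in all (10.3%). Against TKO 6.87% of measured genes were called, while 18 genes (0.618%) were called between TKO and TWT and 24 (0.825%) between IL-6 KO and TWT. The 204 genes called against TWT that moved the same way by 2-fold or more against TKO were 6.62% of those measured. Progenitor genes were among the lower. Kit, the stem cell factor receptor, was at 6.83 CPM in DKO, 35.0 in TKO, 61.2 in IL-6 KO and 50.3 in TWT (log2 -2.71), and Cd34 itself at 38.2, 144, 186 and 146 CPM in the same order (-1.90). Mpo was at 1092 CPM in DKO, 3405 in TKO, 4937 in IL-6 KO and 3362 in TWT (-1.62). Ly6d, of early lymphoid and plasmacytoid dendritic cell precursors, was at 2.73 CPM in DKO, 56.8 in TKO, 21.2 in IL-6 KO and 84.4 in TWT (-4.52), and Runx2, a factor of plasmacytoid dendritic cells, at 9.56, 64.1, 44.4 and 84.1 CPM (-3.01). Both measured stem and progenitor genes, all 3 measured plasmacytoid dendritic cell genes and both endothelial genes were called lower. From their own UMIs 4 of its 47 cells in DKO scored as stem and progenitor, against 24 of 106 in TWT. In TKO these were 17 of 109 cells, and in IL-6 KO 23 of 73. Those that scored as GMP were 38 in DKO, 72 in TKO, 43 in IL-6 KO and 57 in TWT. In TWT this cluster also held 12 cells that scored as conventional dendritic cell and 8 with endothelial markers. Its content thus differed between libraries, and these levels are not read as a change within a single cell type.

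Neutrophil and antigen presentation genes were among those higher in DKO in this cluster. Chil3 was at 2519 CPM in DKO, 83.1 in TKO, 183 in IL-6 KO and 57 in TWT (5.44). Camp was at 2076 CPM in DKO, 357 in TKO, 840 in IL-6 KO and 236 in TWT (3.13), and all 5 measured genes of the immature neutrophil list were called higher (median 3.13, against 0.07 over all measured genes). In kept T cells Camp was at 1920 CPM in DKO, 3904 in TKO, 827 in IL-6 KO and 1930 in TWT, and Chil3 at 1000, 414, 137 and 221. Camp in the cluster was thus near its T cell level in DKO in CPM, but at unlike depth. The median in DKO was 31057 UMIs in the cluster and 3485 in T cell barcodes, so this does not show how much is free RNA. Antigen presentation genes moved with them, with 4 of 6 measured MHC class II genes higher (2.82): H2-Aa was at 235 CPM in DKO, 9.20 in TKO, 54.3 in IL-6 KO and 18.4 in TWT, and Cd74, the invariant chain, at 611, 25.2, 103 and 70.5 CPM in the same order. In kept T cells, which in mice make little of either, H2-Aa was at 198 CPM in DKO, 20.3 in TKO, 29.4 in IL-6 KO and 25.7 in TWT, and Cd74 at 514, 105, 101 and 103. These levels in CPM lie close to those in the cluster in DKO, at the same unlike depth, and the part of free RNA was not tested. Of the dissociation stress list 3 of 4 measured genes were higher in DKO (1.73), among them Jun at 116 CPM in DKO, 64.1 in TKO, 17.8 in IL-6 KO and 26.1 in TWT, and their part was not tested. Of the lysosome and lipid handling list 3 of 8 were higher and 0 lower (0.86). G2/M genes differed less than in monocyte-like cells, with 4 of 35 measured genes lower and 0 higher (-0.55), and of the S phase list 1 of 34 was higher and 1 lower (0.16).

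Within a library, gene-rich cells were then set beside kept cells of the same own-UMI class. The 2 sets differ in depth by the rule, so that CPM and not UMIs is compared, and since gene number chose the cells these values describe them and are no test. In erythroid barcodes, 183 of 2850 genes were higher in gene-rich cells in each of TKO, IL-6 KO and TWT (6.42%) and 109 were lower (3.82%). DKO had too few cells. Library by library, 10.4% of measured genes were higher in TKO, 13.4% in IL-6 KO and 15.4% in TWT, and 5.77%, 9.20% and 7.73% were lower. Nop16, a nucleolar protein of ribosome assembly, was at 74.6 CPM in gene-rich against 18.3 in kept cells in TKO, 55.0 against 8.67 in IL-6 KO and 69.2 against 8.22 in TWT. Ribosome biogenesis genes moved together, with 11 of 12 higher in each library (median log2 1.37 in TKO, 1.54 in IL-6 KO and 1.81 in TWT, against 0.24, 0.42 and 0.35 over all measured genes). Globins were lower: Hbb-bs was at 4543 CPM in gene-rich against 48294 in kept cells in TKO, 4534 against 65450 in IL-6 KO and 4535 against 69056 in TWT. Gene-rich erythroid barcodes thus held a smaller share of globin RNA. Their number of genes at 10000 UMIs was also higher, with a median of 2863 against 2559 in TKO, 2904 against 2616 in IL-6 KO and 2944 against 2654 in TWT, in the kept cells deep enough for it. G2/M genes were not among the higher ones in any of the 3 libraries (0 of the list).

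In GMP barcodes 78 of 2260 genes were higher in gene-rich cells in all 4 libraries (3.45%) and 37 were lower (1.64%). Library by library, 11.5% of measured genes were higher in DKO, 5.94% in TKO, 6.44% in IL-6 KO and 6.03% in TWT, and 3.22%, 3.34%, 3.16% and 2.82% were lower. Irf8, the transcription factor that directs progenitors to the monocyte and dendritic cell branch, was at 299 CPM in gene-rich against 15 in kept cells in DKO, 375 against 40.6 in TKO, 393 against 60.9 in IL-6 KO and 298 against 24.1 in TWT. Ms4a6c, of the monocyte branch, was at 669 against 62.7 in DKO, 363 against 42.7 in TKO, 372 against 48.1 in IL-6 KO and 307 against 31.7 in TWT. Camp, of the neutrophil branch, was lower, at 6009 against 35928 in DKO, 5100 against 34800 in TKO, 5152 against 31831 in IL-6 KO and 6126 against 33147 in TWT. Ribosome biogenesis genes were higher in 6 of 12 in DKO, 7 in TKO, 10 in IL-6 KO and 7 in TWT. Of the monocyte list 4 of 5 measured genes were higher in gene-rich GMP barcodes in all 4 libraries and 0 lower, and of the immature neutrophil list 0 of 8 were higher and 6 lower. At 10000 UMIs gene-rich GMP barcodes had a median of 2772 genes in DKO, 2741 in TKO, 2800 in IL-6 KO and 2774 in TWT, against 2264, 2429, 2466 and 2536 in the kept ones.

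In monocyte barcodes 87 of 2516 genes were higher in gene-rich cells in all 4 libraries (3.46%) and 18 were lower (0.715%). Taken singly, 7.06% of measured genes were higher in DKO, 5.89% in TKO, 6.14% in IL-6 KO and 6.70% in TWT, and 1.80%, 3.30%, 5.08% and 4.12% were lower. Of the 87 genes 33 were in the S phase or G2/M list. G2/M genes were higher in 34 of 35 measured in DKO (median log2 2.36), 42 of 45 in TKO (1.66), 42 of 47 in IL-6 KO (1.52) and 44 of 47 in TWT (1.60), against medians of 0.02 to 0.04 over all genes. Cenpf was at 155 CPM in gene-rich against 13.4 in kept cells in DKO, 333 against 63.8 in TKO, 337 against 103 in IL-6 KO and 348 against 90.3 in TWT. Of the S phase list 17 of 17 measured genes were higher in DKO (2.73), 8 of 25 in TKO, 12 of 25 in IL-6 KO and 14 of 22 in TWT. Ctsg was at 74.2 against 17.8 in DKO, 273 against 52.4 in TKO, 570 against 75.7 in IL-6 KO and 318 against 46.7 in TWT, and Elane at 348 against 73.4, 525 against 124, 615 against 183 and 577 against 113 in the same order. Apoe was lower, at 1036 against 4454 in DKO, 76.1 against 1026 in TKO, 28.2 against 1846 in IL-6 KO and 51.8 against 1041 in TWT. Gene-rich monocyte barcodes thus held more cell cycle and primary granule transcripts than kept ones in each library, and Mki67 was found at 10000 UMIs in 74.1% of them in DKO (63.1 to 83.2), 98.7% in TKO, 97.2% in IL-6 KO and 96.8% in TWT. At 10000 UMIs they had a median of 2794 genes against 2640 in kept cells in DKO, and 3060 against 3032 in TKO. In IL-6 KO these were 3074 against 3037, and in TWT 3090 against 3050. Both medians were lowest in DKO. The kept cells deep enough for it were 784 of 1631 in DKO and 113 of 472 in TWT, which are unlike parts.

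Stem and progenitor barcodes, compared in TKO, IL-6 KO and TWT, had 62 of 2879 genes higher in gene-rich cells in all 3 (2.15%) and 71 lower (2.47%). Taken singly, 6.80% were higher in TKO, 7.83% in IL-6 KO and 10.1% in TWT, and 5.75%, 5.68% and 6.91% were lower. Ctsg was at 975 CPM in gene-rich against 106 in kept cells in TKO, 1466 against 151 in IL-6 KO and 1319 against 85.0 in TWT. Mpo was at 1453 against 160 in TKO, 3232 against 703 in IL-6 KO and 1814 against 135 in TWT. Of the GMP list 5 of 8 measured genes were higher in gene-rich cells in all 3 libraries and 0 lower, and of the S phase and G2/M lists together 8 of 61 were higher and 0 lower. Library by library the G2/M list had 23 of 34 higher in TKO, 16 of 38 in IL-6 KO and 5 of 35 in TWT, and the S phase list 13 of 31, 11 of 28 and 14 of 32. At 10000 UMIs they had 3105 genes against 3115 in kept cells in TKO, 3078 against 3032 in IL-6 KO and 3098 against 3016 in TWT.

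Doublets were looked for in 2 ways, neither of which is made to find a pair of cells of like type. Scrublet, which compares each barcode with simulated pairs, was run at an expected rate of 10% and called 28 gene-rich cells in DKO (10.2%, 6.87 to 14.4), 16 in TKO (2.72%), 10 in IL-6 KO (2.37%) and 22 in TWT (3.41%). Among kept cells it called 2.30% in DKO, 2.38% in TKO, 2.58% in IL-6 KO and 2.81% in TWT. A gene-rich cell was thus called more often than a kept one in DKO, and at a rate within counting error of it in the other libraries. The median Scrublet score, without a cut, was higher in gene-rich than in kept cells in every library. It was 0.141 against 0.0502 in DKO, 0.111 against 0.0480 in TKO, 0.134 against 0.0556 in IL-6 KO and 0.108 against 0.0512 in TWT. At an expected rate of 6% it called 1 of all 10866 barcodes in DKO and 0 of the 275 gene-rich cells. An excess in DKO could thus not be seen at that setting. Called gene-rich cells were not deeper in 3 of the 4 libraries, with a median of 25522 UMIs against 26235 in uncalled cells in DKO, 21632 against 27546 in TKO and 23669 against 26597 in TWT, and 30888 against 26888 in IL-6 KO. The calls lay mostly in the mixed cluster (18.3% of its cells in DKO, 21.2% in TKO, 18.2% in IL-6 KO and 25.9% in TWT) and in T cell-like cells (57.1% in DKO). In monocyte-like cells they were 2.80% in DKO, 0.826% in TKO, 0% in IL-6 KO and 0% in TWT.

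Markers of a pair of lineages in the same barcode gave the second reading. A cell was counted when, thinned to 10000 UMIs, it held at least 60% of the markers of lists from more than 1 of 6 lineage groups (erythroid, T or NK, B lineage, monocyte, mature neutrophil, megakaryocyte or basophil). Such cells were 56 in DKO (20.4%, 15.8 to 25.6), 19 in TKO (3.23%), 15 in IL-6 KO (3.55%) and 16 in TWT (2.48%), and 13, 6, 4 and 5 of them were also called by Scrublet. The commonest pair was monocyte with mature neutrophil, in 48 cells in DKO, 9 in TKO, 4 in IL-6 KO and 6 in TWT. A pair of T or NK cell with monocyte was found in 9 cells, 8 of them in DKO. These cells were 58.3% of the mixed cluster in DKO, 24.2% in TKO, 21.2% in IL-6 KO and 14.8% in TWT, and 10.3% of monocyte-like cells in DKO against 0.826% in TKO, 1.54% in IL-6 KO and 0.901% in TWT. In T cell-like cells of DKO they were 9 of 14. Without them the number of gene-rich cells per barcode in DKO was 0.269 of that in TWT in place of 0.330, and the share with Mki67 in DKO lay 19.2 points below TWT in place of 26.6. Whether such barcodes hold a pair of cells, a cell with free RNA or a cell that makes both sets of transcripts was not tested. The 6 groups leave out the GMP, stem and progenitor, and immature neutrophil lists. A low count in the GMP-like cells or the Cd34-led cluster thus does not show that these hold few doublets.

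**Figure D5:**
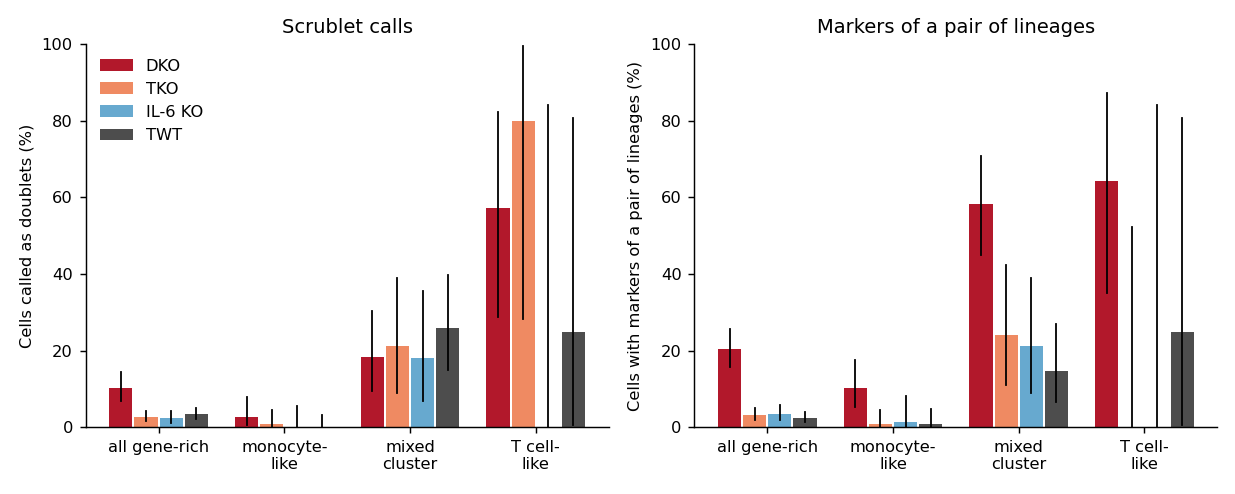
Percentage of gene-rich cells called by Scrublet and percentage holding markers of a pair of lineages (panels), for all gene-rich cells and for monocyte-like, mixed and T cell-like cells (x axis), with bars for DKO, TKO, IL-6 KO and TWT from left to right and exact 95% intervals. Among all gene-rich cells DKO is highest in both, with 10.2% against 3.41% in TWT by Scrublet and 20.4% against 2.48% by markers.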

How the data were processed

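Bone marrow cells of 4 genotypes were measured with 10x Genomics Single Cell 3′ v3 chemistry, 1 library each. The authors used Cell Ranger with mm10 (the matrix header gives version 3.0.2) and deposited whole-number UMI counts of 31053 genes for the barcodes called as cells. Counts were not corrected for free RNA, and unfiltered barcodes were not used here. The study's methods name Seurat 4 and the filter of 500 to 4000 genes and 15% mitochondrial UMIs. No red cells were removed here.

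Gene-rich cells of the 4 libraries were joined with Seurat anchors (Seurat 5.3.0, R 4.3.3; 2000 variable genes, 30 principal components, k.weight 50, resolution 0.5) and named from 20 marker lists: a cluster took a name when at least 3 of its markers were 2-fold higher in it and no other list had more among its 10 leading genes. Own-UMI classes used the same lists, scored barcode by barcode. Other steps ran in Python 3.11.15 (pandas 2.3.3, scanpy 1.11.5 for Scrublet, numpy 2.4.6, matplotlib 3.10.9, scipy 1.17.1). CPM is a gene's UMIs over all UMIs of the class. A gene was measured with 50 CPM in either group and 30 UMIs in both together, and called at 2-fold with a pseudocount of 1 CPM. The steps were tested on simulated data. Intervals are Clopper-Pearson for shares, Poisson for sums and conditional binomial for ratios, and a count of 0 is bounded by 3 counts. UMIs are not all independent molecules of the cell.

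Genes named are the markers, the 6 highest and 4 lowest called between DKO and TWT that moved 2-fold the same way against TKO, the 5 highest and 3 lowest by median between gene-rich and kept cells among genes called in every library compared, and 2 to 4 members of a list with the largest difference, or fewer of each where the text gives a count. Members and lists were chosen with earlier results of these data known. Scrublet was planned at an expected rate of 6%, but marked 1 barcode in DKO (0.00920%) and was run at 10% in its place, where it marked 2.30% to 2.70% of barcodes. The motif search was not read for the S phase list, of which 30 of 42 genes had a promoter in the table.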

Additional observations from a re-analysis of the deposited data

Results flagged for a closer look

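For the following values the contrast of the mDia1 and miR146a deletions went opposite ways, with intervals that exclude 1, on the IL6+/+ background (DKO over TWT) and on the IL6-/- background (TKO over IL-6 KO). Each is 1 library against 1 library, and the difference between the backgrounds was not tested. Gene-rich cells per barcode stood at a ratio of 0.330 in DKO over TWT and 1.34 in TKO over IL-6 KO. For GMP-like cells per barcode the ratios were 0.173 and 1.80, for monocyte-like cells 0.747 and 1.78, and for the Cd34-led cluster 0.344 and 1.43 in the same order. The gene-rich share of GMP barcodes, with classes from own UMIs, stood at 0.375 in DKO over TWT and 1.29 in TKO over IL-6 KO, and that of monocyte barcodes at 0.273 and 1.83. Other values did not part in this way: pro/pre-B cell-like cells per barcode stood at 0.0861 and 0.557, T cell-like cells at 2.71 and 2.40, the mixed cluster at 0.861 and 0.959, and the gene-rich share of erythroid barcodes at 0.634 and 0.968. For erythroid-like cells (0.0454 and 1.21), megakaryocyte-like cells (0.123 and 1.22) and the gene-rich share of stem and progenitor barcodes (0.645 and 1.45) at least 1 interval held 1. Xist was at 1185 CPM in gene-rich cells of IL-6 KO and 0 in TKO, so sex and genotype cannot be told apart in the second contrast.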

How the results depend on the processing

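No paired analysis was possible because each genotype has 1 library. With no replicates, no library could be left out of a group. Of the values that answer a comparison, 95 recomputed values stayed close to the one reported, 37 moved and 1 reversed, and of the single genes 302 kept their call, 18 lost it and 0 reversed. Alternatives that remove cells with markers of a pair of lineages, leave out genes that differ between DKO and TWT before clustering, drop cluster 7 or cluster 8, drop shared or near-boundary barcodes, or limit a class by own UMIs were chosen after seeing the data. The cause of each move was not tested. The number of gene-rich cells in DKO over TWT (0.330) was 0.499 over 3500 genes, 0.135 over 5000 genes, 0.283 with the libraries thinned to equal depth and 0.269 without cells of a pair of lineages, and IL-6 KO over TWT (0.637) was 0.733 with thinned libraries. The erythroid-like share in DKO over TWT (0.137) was 0.0635 without integration and 0.280 over 5000 genes. The GMP-like share (0.524) was 0.229 without integration, 0.870 with own-UMI classes and 0.273 over 5000 genes. The monocyte-like share (2.26) was 1.72 without the differing genes, 3.03 with own-UMI classes and 4.30 over 5000 genes. Without integration it reversed to 0, since the DKO cells fell in an unnamed cluster (127 of its 137 cells) and a macrophage-led cluster (108 of its 148 cells). The difference in cells with Mki67 (-26.6 points) was -16.8 over 5000 genes and -19.2 without cells of a pair of lineages. In monocyte-like cells (-28.2) it was -41.5 without the differing genes, -40.9 with own-UMI classes and -22.2 over 5000 genes, and in GMP-like cells (-12.7) -20.7 without integration. Scrublet calls in gene-rich DKO cells were 0% at an expected rate of 6%, where it called 1 of all 10866 DKO barcodes. With a minimum of 20 CPM, the genes called between DKO and TWT were 798 in monocyte-like cells in place of 389 and 771 in the Cd34-led cluster in place of 317, where 26.3% in place of 39.4% were higher. Between gene-rich and kept cells, the erythroid genes higher (183) were 94 without genes over 1% of UMIs, 30 with the mean CPM of cells and 346 at 20 CPM, and those lower (109) were 170 without genes over 1% and 214 at 20 CPM. In GMP barcodes 78 higher became 51 without genes over 1% and 152 at 20 CPM, and 37 lower became 65 and 58. In monocyte barcodes 87 higher became 138 with the mean CPM and 163 at 20 CPM, and 18 lower became 38 and 29. In stem and progenitor barcodes 62 higher became 27 without genes over 1% and 38 with a pseudocount of 10 CPM. Classes with under 30 cells in DKO limit what can be compared there.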
